A study of Mus musculus with 4 samples.

Results

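MAP kinase, PI3 kinase and STE-type kinase genes were examined here through their unannotated transcripts in granulocyte-monocyte progenitors. The members were all genes with a listed unannotated transcript whose mouse symbol starts with Mapk, Map2k, Map3k, Map4k, Stk, Pik3, Pik4, Prk, Rps6k, Dusp, Taok or Nek, or with Pak or Akt followed by a digit. By this rule 67 of 5059 annotated genes were members, with 95 of 7945 transcripts. The rule works on symbols alone, so it also takes scaffolds, regulatory subunits and phosphatases. Through the Prk prefix it takes protein kinase C genes, and the catalytic and regulatory subunits of AMP-activated kinase. No Pik4 gene was listed.

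Granulocyte-monocyte progenitors are the marrow precursors of neutrophils and monocytes. They were sorted from wild-type mice and from MST1-deficient mice, with 2 libraries in each group and 10 mice pooled for each library. All sorted cells were kept in medium with serum, and none received a drug. The strain, age and sex of the mice, the design of the MST1 allele and the cells in which it acts are not stated in the labels. Poly(A) RNA was copied to cDNA and sequenced, and values were available here only for transcripts that the authors' identifiers mark as outside their reference annotation. A level given for a gene is therefore the sum over its unannotated transcripts and not the expression of the whole gene, and a gene that was not listed may still be expressed from annotated transcripts. Levels are FPKM, which scale a transcript's estimated count by its length and by the size of the library.

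In a MAP kinase cascade, a MAP3K phosphorylates a MAP2K, which phosphorylates a MAP kinase such as ERK, JNK or p38. MAP4K kinases act above the cascade, and many dual-specificity phosphatases switch MAP kinases off. PI3 kinases make the membrane lipid that recruits AKT, and in blood cells the delta and gamma forms carry signals from cytokine and chemoattractant receptors. MST1, the product of Stk4, is a STE20-type kinase at the head of the Hippo pathway, in which MST kinases with their partner SAV1 act on LATS and NDR kinases and their MOB1 cofactors.

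The libraries listed between 6517 and 6774 unannotated transcripts, which summed to between 928977 and 1079382 estimated counts. These sums were 11.8% to 13.5% of the library totals implied by the FPKM values. Members held 1.16% and 1.13% of the estimated counts of annotated genes in wild-type libraries 1 and 2, and 1.34% and 1.20% in MST1-deficient libraries 1 and 2. Of 16 marker genes of myeloid progenitors, only Gfi1, Kit and Csf3r were listed, and the defining genes Elane and Mpo were not, so the identity of the sorted cells could not be checked in these values. For markers of other cell types the summed levels were as follows, and no marker gene passed the edgeR test (lowest adjusted p 0.274). Summed FPKM over 4 listed of 9 T and NK cell markers was 36.6 and 28 in the wild-type pools against 17.6 and 12 in the MST1-deficient pools, while Cd3e, Cd4, Cd8a, Lck and Gzma were not listed. Within this list Klrc1 was lower in the MST1-deficient pools, at 19.7 and 22.3 against 3.98 and 4.34 FPKM, and Ncr1 was higher, at 5.41 and 4.93 against 9.86 and 7.63, both without overlap and both at an unadjusted edgeR p under 0.05. Over 5 listed of 10 erythroid markers the summed FPKM was 23.6 and 30.8 against 18.7 and 7.8, with Klf1, Epor, Gata1 and Hba-a1 among those not listed. Of these, Sptb was lower in both MST1-deficient libraries, at 13.8 and 15.8 against 7.89 and 2.91 (edgeR unadjusted p = 0.0222). Ank1 and Tal1 overlapped, Tal1 at 4.16 and 4.47 against 4.88 and 3.41. For eosinophils, basophils and mast cells, 4 listed of 9 markers summed to 151 and 190 against 113 and 126, with Prg2, Epx, Fcer1a, Cpa3 and Mcpt8 not listed. Gata2 was the largest part of this sum, at 74.2 and 78.9 against 64.4 and 63.0. All 4 listed markers lay lower in both MST1-deficient libraries, as did 18.8% of all genes tested. Their log2 fold change was -0.19 for Gata2, -0.81 for Prg3, -0.68 for Ms4a2 and -0.65 for Alox15 (lowest edgeR adjusted p 0.918). The summed level over 2 listed of 8 macrophage and dendritic cell markers was 8.0 and 4.0 against 2.9 in each MST1-deficient library. Nearly all of it was Itgax, at 7.62 and 3.96 against 2.77 and 2.87. B lineage markers (4 listed of 7) summed to 22.4 and 1.7 against 9.5 and 8.4, and megakaryocyte markers (3 listed of 5) to 37.0 and 45.2 against 44.5 and 34.4. The Y-linked genes Ddx3y, Kdm5d, Uty and Eif2s3y were at 0 in wild-type library 2 and higher in both MST1-deficient libraries than in either wild-type library. Ddx3y was at 1.91 and 0 FPKM against 10.2 and 5.60, and Kdm5d at 0.02 and 0 against 2.59 and 3.19. The sex make-up of the pools may thus differ with the genotype. The part of these differences, in cell types or in sex, in the kinase values below was not tested, and in bulk RNA fewer cells of a type and less RNA per cell cannot be told apart.

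The Stk4 gene lies on chromosome 2 at 164074113 to 164155524 (GRCm38.p6), and no unannotated transcript of it was listed in any library. Its level therefore gives no check of the genotype labels. Of 26 genes comprising Stk4, related kinases and Hippo partners, 16 were listed and 10 were not. Stk3, which encodes the close relative MST2, was not listed. Stk24, Stk26, Stk38l, Oxsr1, Lats1, Map4k1, Mink1 and Mob1a were not listed either.

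Among the listed relatives, TAOK2, a TAO kinase known to phosphorylate MST kinases, had the highest level. Taok2 was at 15.9 and 15.3 FPKM in the wild-type pools against 16.5 and 13.8 in the MST1-deficient pools 1 and 2. Its only listed transcript was 8064 bases long, against 4985 for the longest annotated one, and the gene overlaps Tmem219 on the same strand. The part of Tmem219 in this level was not tested. Taok1 was at 6.23 and 1.92 against 6.13 and 0.65, so that each group held a high and a low library. Taok3 was listed only in MST1-deficient library 1, at 0.29.

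Stk25, a germinal-centre kinase of the same branch as the unlisted Stk24 and Stk26, was at 10.8 and 7.63 FPKM in the wild-type pools against 11.5 and 8.5 in the MST1-deficient pools. Slk, a STE20-type kinase outside the member rule, was at 7.37 and 3.07 against 8.03 and 6.05. Its relative Stk10, a regulator of lymphocyte adhesion, was at 0.38 and 0.31 against 0.97 and 0.15. In all 3 genes the groups overlapped. Stk39, which encodes SPAK, a regulator of ion transport, was at 2.78 and 1.28 against 0.81 and 2.30. Stk38, which encodes the MST substrate NDR1, was at 0.95 and 1.13 against 2.56 and 0.68. These groups overlapped too, and the edgeR adjusted p was 0.994 for Stk39 and 0.992 for Stk38.

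Of the LATS and MOB1 genes and Sav1, all outside the member rule, Lats2 was listed in wild-type library 1 alone, at 0.03 FPKM. Sav1 was at 1.49 and 0.97 FPKM in the wild-type pools against 0.96 and 2.06 in the MST1-deficient pools, and Mob1b at 3.85 and 3.38 against 3.56 and 3.37. In both genes the groups overlapped. Tnik, a MAP4K relative, was at 0 and 0.14 against 0.23 and 0.07.

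**Figure D1:**
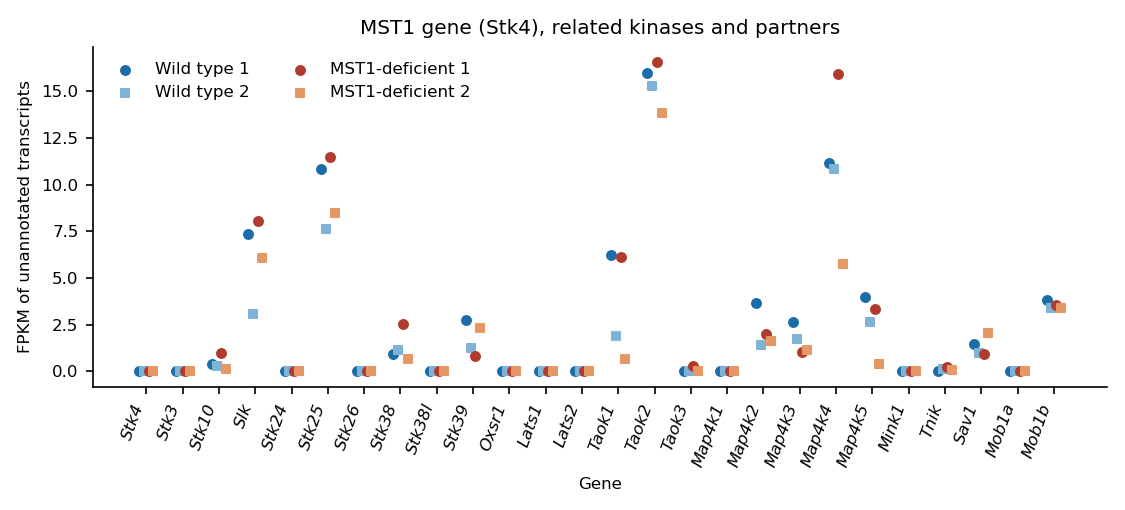
FPKM (y axis) of the unannotated transcripts of the MST1 gene Stk4, related kinases and Hippo partners (x axis), with 1 point for each of the 4 libraries. Genes at 0 in all libraries, Stk4 and Stk3 among them, were not listed, and Taok2 lies highest at 13.8 to 16.5.

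A larger share of the kinase signalling genes was listed than of protein-coding genes at large, a description with no test. RefSeq holds 194 genes with such symbols, of which 185 are protein-coding, and 67 of these 185 (36.2%) were listed, against 4954 of 21900 (22.6%) of all protein-coding genes. Coverage differed among the families. All 3 TAO kinases and 4 of 5 Map4k genes were listed, against 2 of 8 Map2k genes and 2 of 11 Nek genes. The 8 Map2k genes include Map2k3os, a non-coding RNA gene. None of the AKT kinases was listed, and the single AKT member was Akt1s1, which encodes PRAS40, a substrate of AKT and a subunit of mTOR complex 1. Mapk3 (ERK1), Map2k1 (MEK1), Map3k7 (TAK1), Pik3cg and Pik3r1 were also not listed.

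A single unannotated transcript was listed for 50 of the 67 genes, while 11 had 2, 3 had 3 and 2 had 4. Mapk8ip3, which encodes the JNK scaffold JIP3, had 6. Of the 95 transcripts, 59 (62.1%) were listed in all 4 libraries and 14 (14.7%) in only 1, shares near those of all transcripts of annotated genes (60.7% and 12.8%). The members' transcripts were 1341 to 14116 bases long with a median of 4212, against 3882 for all. Compared with GENCODE M21, 40 of the 95 (42.1%) were longer than the longest annotated transcript of their gene, against 45.1% of all. For 31 of the 95 the length lay within 100 bases of an annotated transcript's length. The Prkcd transcript, for example, was 2853 bases long and an annotated transcript 2851. The positions and sequences of these transcripts were not used here, so the difference in structure was not identified.

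Levels were modest. The median over members of the mean FPKM was 2.23, against 1.89 over all annotated genes listed. A mean below 1 was found for 20 members, and none reached 100. The 8 most abundant members, Map2k2, Pik3cd, Map3k11, Prkab1, Akt1s1, Taok2, Dusp2 and Mapkapk3, held 56.9% and 59.4% of the members' summed FPKM in the wild-type pools against 52.2% and 56.9% in the MST1-deficient pools. The sum over all members was 356 and 331 FPKM in the wild-type pools against 404 and 327 in the MST1-deficient pools, which overlap.

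**Figure D2:**
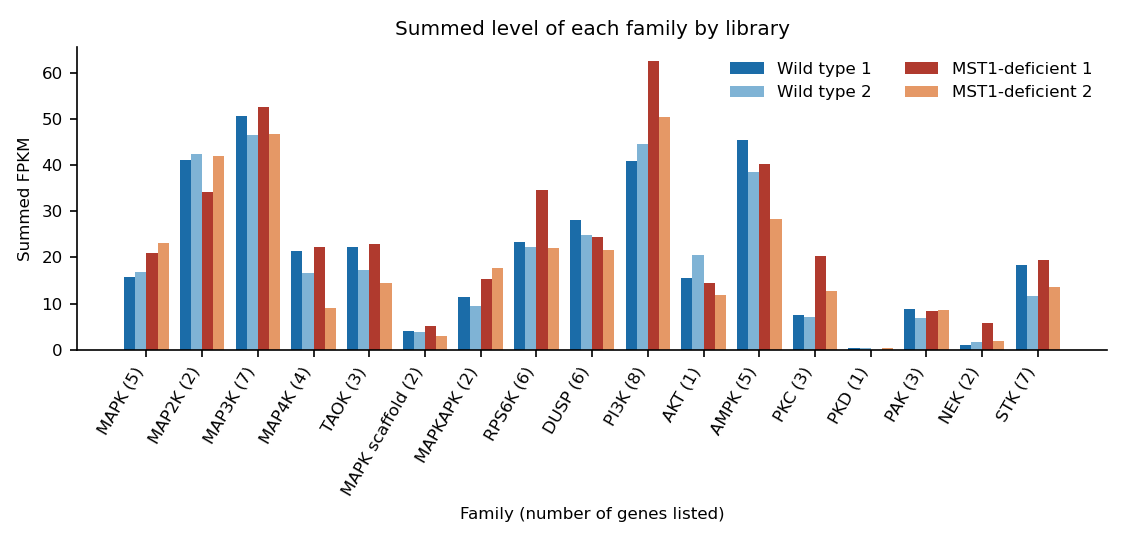
Summed FPKM of unannotated transcripts (y axis) for each family of members (x axis, with the number of genes listed in parentheses), with 1 bar for each library. The PI3K bars are 40.8 and 44.6 in the wild-type pools against 62.4 and 50.4 in the MST1-deficient pools; the AKT bar is Akt1s1 alone.

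To ask whether MST1 deficiency went with a difference in these transcripts, the 4 libraries were compared with edgeR's quasi-likelihood test, with Benjamini-Hochberg adjustment over all genes tested. Genes entered the test if 2 or more libraries reached an FPKM of 1, which 45 members met and 22 did not. No member passed an adjusted p of 0.05. The same holds for all genes, since 0 of 3221 (0%) were called, and the lowest adjusted p was 0.516 among members and 0.112 among all genes. DESeq2 called 46 of the 3221 genes (1.43%) and no member, and limma called 6 and no member. At an unadjusted edgeR p under 0.05, 3 of 45 members (6.7%) were higher in MST1-deficient libraries, Prkcd, Pik3cd and Rps6ka2, where the background was 3.01% of all genes. In the other direction, 1 of 45 (2.2%), Prkab1, was lower, where the background was 2.64%.

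Overlap between groups was judged on FPKM, while fold changes came from counts that edgeR scaled over the tested genes, so the 2 measures can differ. Both MST1-deficient libraries lay above both wild-type libraries in 8 of 45 tested members (17.8%), against 14.1% of all genes. They lay below in 7 of 45 (15.6%), against 18.8% of all genes. The other 30 overlapped. These shares are near the background. The log2 fold change, MST1-deficient over wild type, was positive in 27 of 45 members (60%) and in 51.1% of all genes. Its median was 0.17 over members (quartiles -0.22 and 0.57) and 0.01 over all genes, and the within-group standard deviation of the members' median level was 0.18 on the log2 scale. The members' values are thus described below as measured, none of them having passed the test. With 2 pools a group and nothing in the labels on separate sorts, p-values measure only the spread between these pools.

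**Figure D3:**
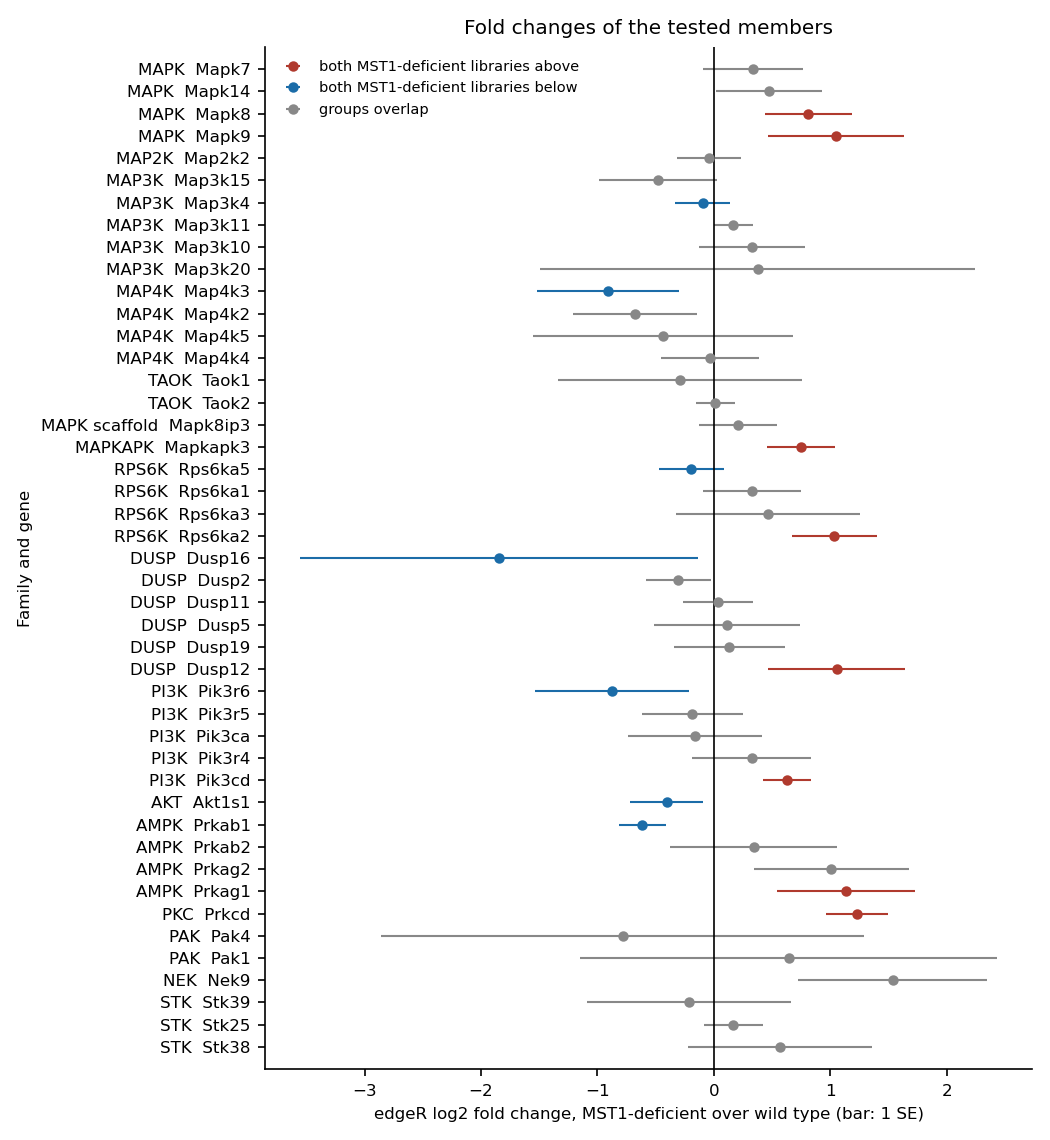
edgeR log2 fold change of the gene sum, MST1-deficient over wild type (x axis), for the 45 tested members grouped by family (y axis); bars are 1 standard error and colours show whether the groups overlap. The highest value is 1.54 (Nek9) and the lowest -1.84 (Dusp16, at 0 in MST1-deficient library 1), and no adjusted p was below 0.516.

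The MAP kinases themselves had higher values in MST1-deficient libraries for both listed JNK genes. Mapk8, which encodes JNK1 (chromosome 14, 33377898 to 33447353), was at 1.94 and 1.57 FPKM in the wild-type pools against 4.0 and 2.10 in the MST1-deficient pools. Mapk9, which encodes JNK2, was at 1.14 and 1.30 against 3.23 and 1.71. In both genes the groups did not overlap and MST1-deficient library 1 was the highest. The log2 fold change was 0.81 (SE 0.37, edgeR adjusted p = 0.929) for Mapk8 and 1.05 (SE 0.59, edgeR adjusted p = 0.945) for Mapk9. Leaving out each library gave 0.48 to 1.08 for Mapk8 and 0.70 to 1.33 for Mapk9, the lowest in both without MST1-deficient library 1.

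Mapk14, the most abundant MAP kinase and the gene of p38 alpha, was at 7.25 and 11.3 FPKM in the wild-type pools against 9.76 and 14.6 in the MST1-deficient pools. Mapk7, which encodes ERK5, was at 3.76 and 2.56 against 3.05 and 4.43. Both genes overlapped between groups.

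Above the MAP kinases, Map2k2, which encodes MEK2, the activator of ERK, was among the most abundant members at 41.0 and 41.9 FPKM in the wild-type pools against 34.2 and 41.9 in the MST1-deficient pools. Its log2 fold change was -0.04 (SE 0.27, edgeR adjusted p = 0.995). Map2k7, an activator of JNK, was listed in wild-type library 2 alone, at 0.42.

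The leading MAP3K was Map3k11, which encodes the mixed-lineage kinase MLK3, at 34.7 and 31.9 FPKM in the wild-type pools against 41.4 and 31.0 in the MST1-deficient pools. These groups overlapped. Map3k4, an activator of the JNK and p38 branches that GADD45 proteins bind, was at 8.74 and 7.45 against 7.29 and 7.15. The groups did not overlap in FPKM, but the log2 fold change was -0.10 (SE 0.24, edgeR adjusted p = 0.992) and became 0.04 without MST1-deficient library 1. Map3k20, which encodes the ribosome-stress kinase ZAK, was at 2.19 and 2.03 in the wild-type pools against 0 and 4.70 in the MST1-deficient pools, so that the 2 MST1-deficient pools lay on either side of the wild type.

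Among the MAP4K genes, Map4k3, a kinase tied to amino acid sensing and T cell signalling, had lower values in MST1-deficient libraries. It was at 2.63 and 1.73 FPKM in the wild-type pools against 1.05 and 1.15 in the MST1-deficient pools, without overlap (log2 fold change -0.91, SE 0.61, edgeR adjusted p = 0.992; -1.15 to -0.67 with each library left out). Map4k4, the most abundant of the family, was at 11.2 and 10.8 against 15.9 and 5.74, and Map4k2 was at 3.68 and 1.39 against 2.0 and 1.63. Both overlapped, as did Map4k5, at 3.96 and 2.67 against 3.36 and 0.42.

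Kinases that MAP kinases activate had their largest differences in Mapkapk3 and Rps6ka2. Mapkapk3, a substrate of p38 (chromosome 9, 107254927 to 107289877), was at 11.4 and 9.37 FPKM in the wild-type pools against 15.3 and 17.7 in the MST1-deficient pools. Both MST1-deficient values lay above the wild type, with a log2 fold change of 0.75 (SE 0.29, edgeR adjusted p = 0.889) that was 0.46 without MST1-deficient library 2 and 0.99 without MST1-deficient library 1. Rps6ka2, which encodes the ERK-activated ribosomal S6 kinase RSK3 (chromosome 17, 7088971 to 7303315), was at 2.33 and 2.60 against 4.30 and 5.26. The groups did not overlap either, and the log2 fold change was 1.03 (SE 0.37, edgeR unadjusted p = 0.041, adjusted p = 0.846), with 0.70 to 1.31 when each library was left out.

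The other ribosomal S6 kinase genes did not share this pattern in their values. Rps6ka1, which encodes RSK1 and was the most abundant, was at 9.60 and 12.2 FPKM in the wild-type pools against 19.5 and 7.97 in the MST1-deficient pools. Rps6ka3, which encodes RSK2, was at 3.35 and 1.15 against 5.04 and 1.17. Rps6ka5, which encodes the nuclear kinase MSK1, was at 6.13 and 5.68 against 4.84 and 5.11. The first 2 overlapped, while Rps6ka5 lay lower in both MST1-deficient libraries with a log2 fold change of -0.19 (SE 0.28, edgeR adjusted p = 0.992), which became 0.00 without MST1-deficient library 1. Rps6kc1 was listed in MST1-deficient library 2 alone, at 2.31, and Rps6kb1, the gene of the mTOR target S6K1, was at 1.86 and 0.75 against 0.84 and 0.27.

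Of the 6 dual-specificity phosphatase genes, 1 lay higher, 1 lay lower and 4 overlapped, near the background shares of 14.1% above and 18.8% below. Dusp16, a phosphatase of JNK and p38, was at 1.51 and 2.70 FPKM in the wild-type pools against 0 and 1.02 in the MST1-deficient pools. Its log2 fold change was -1.84 (SE 1.71, edgeR adjusted p = 0.992) and depended on the library at 0: it was -0.85 without MST1-deficient library 1 and -9.26 without MST1-deficient library 2. Dusp12, an atypical member of the family, was at 1.60 and 1.65 against 3.61 and 2.92, with a log2 fold change of 1.05 (SE 0.59, edgeR adjusted p = 0.945; 0.97 to 1.15 with each library left out). Dusp2, an inducible nuclear phosphatase and the most abundant of the family, was at 19.6 and 13.8 against 14.5 and 11.5, which overlap. The annotation places predicted genes on the other strand within both Dusp12 and Dusp16. The labels do not state whether the libraries kept strand, so reads from the other strand cannot be told apart there, nor in 24 members in all. On the same strand, 9 members overlap another gene, Taok2, Mapk14 and Pak4 among them.

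Among scaffolds, Mapk8ip3 was at 3.20 and 2.90 FPKM in the wild-type pools against 4.28 and 2.20 in the MST1-deficient pools. Mapk8ip1, which encodes JIP1, was at 0.85 and 1.01 against 0.84 and 0.71 and was not tested.

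Of the PI3 kinase genes, Pik3cd, the leukocyte catalytic subunit p110 delta (chromosome 4, 149649168 to 149702566, minus strand), was by far the most abundant. It was at 27.3 and 32.0 FPKM in the wild-type pools against 51.3 and 38.2 in the MST1-deficient pools. Both MST1-deficient libraries lay above both wild-type libraries, with a log2 fold change of 0.63 (SE 0.21, edgeR unadjusted p = 0.0333, adjusted p = 0.813). DESeq2 gave it an adjusted p of 0.349. Leaving out each library in turn gave log2 fold changes of 0.44 to 0.84.

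Pik3r5 and Pik3r6 encode p101 and p84, the partner subunits of p110 gamma, whose own gene Pik3cg was not listed. Pik3r6 was at 2.13 and 2.33 FPKM in the wild-type pools against 0.78 and 1.45 in the MST1-deficient pools, without overlap (log2 fold change -0.88, SE 0.66, edgeR adjusted p = 0.992). The fold change was -0.39 without MST1-deficient library 1 and -1.63 without MST1-deficient library 2. Pik3r5 was at 5.65 and 3.6 against 3.18 and 4.39, which overlap. Pik3r4, the VPS15 subunit that works with VPS34 in autophagy and endosomal traffic, was at 2.47 and 4.57 against 3.58 and 4.80. The ubiquitous catalytic subunit gene Pik3ca was at 2.98 and 1.76 against 3.09 and 1.11. Pik3ap1, an adaptor that links receptors to PI3 kinase, was at 0.23 and 0.13 against 0.47 and 0.44 and was below the level tested.

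Akt1s1 was at 15.5 and 20.5 FPKM in the wild-type pools against 14.4 and 11.9 in the MST1-deficient pools. The groups did not overlap, and the log2 fold change was -0.41 (SE 0.32, edgeR adjusted p = 0.992). It was -0.13 without wild-type library 2 and -0.64 without wild-type library 1.

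The protein kinase C genes held the member with the lowest p. Prkcd encodes PKC delta, a diacylglycerol-activated kinase of apoptosis, B cell tolerance and neutrophil responses. It lies on chromosome 14 at 30595353 to 30626414 on the minus strand. Its single unannotated transcript had estimated counts of 160 and 142 in the wild-type pools against 381 and 296 in the MST1-deficient pools, or 7.38 and 7.05 against 20.3 and 12.8 FPKM. Both MST1-deficient libraries lay above the wild type, library 1 further than library 2, and the wild-type values lay close together. The fold change of the gene sum was 2.34, or 1.23 on the log2 scale (SE 0.27, edgeR unadjusted p = 0.00753, adjusted p = 0.516). DESeq2 gave an adjusted p of 0.0512 and limma 0.534. Without each library in turn the log2 fold change was 1.04 to 1.39. Prkca was listed in MST1-deficient library 1 alone, at 0.06, and Prkcb was at 0.09 and 0.04 in the wild-type pools and at 0 in the others.

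Subunits of AMP-activated kinase, the sensor of cellular energy, lay in both directions. Prkab1, the beta 1 subunit (chromosome 5, 116013586 to 116024503), was at 37.1 and 32.1 FPKM in the wild-type pools against 23.2 and 20.2 in the MST1-deficient pools. Both MST1-deficient libraries lay below the wild type, with a log2 fold change of -0.61 (SE 0.20, edgeR unadjusted p = 0.0338, adjusted p = 0.813). Leaving out each library in turn gave -0.67 to -0.56.

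Prkag1, the gamma 1 subunit, was at 1.52 and 2.23 FPKM in the wild-type pools against 3.13 and 4.66 in the MST1-deficient pools, with a log2 fold change of 1.13 (SE 0.59, edgeR adjusted p = 0.943), which was 0.61 without MST1-deficient library 2 and 1.53 without wild-type library 2. Prkag2 was at 2.13 and 2.41 against 8.11 and 1.92, and Prkab2 at 3.62 and 1.67 against 5.47 and 1.27. In these last 2 genes MST1-deficient library 1 was the highest and MST1-deficient library 2 near or below the wild type, and the groups overlapped. The catalytic subunit gene Prkaa1 was at 0.97 and 0.15 against 0.33 and 0.21. Both Prkab1 and Prkag1 overlap another gene on the other strand.

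In the remaining families the tested members gave overlapping values. Pak1, a kinase that RAC and CDC42 activate, was at 8.04 and 0 FPKM in the wild-type pools against 6.85 and 4.80 in the MST1-deficient pools. Pak4 was at 0 and 6.18 against 0.65 and 2.72. The wild-type libraries thus differed from each other more than the groups did. Nek9, a mitotic kinase, was at 0.67 and 1.73 against 5.77 and 1.44; its log2 fold change of 1.54 (SE 0.81, edgeR adjusted p = 0.943) rested on MST1-deficient library 1. Prkd3, a protein kinase D gene, was at 0.40 and 0.30 against 0.01 and 0.42 and was not tested. Among untested members, Pak2 (0.86 and 0.70 against 0.97 and 1.17) and Stk11ip (0.23 and 0.70 against 1.89 and 0.90) lay higher in both MST1-deficient libraries, as did Pik3ap1, while Mapk8ip1 and Prkcb lay lower in both. Pik3ap1 rested on estimated counts of 2.23 and 1.16 against 3.9 and 4.51, and Prkcb on 2.72 and 1.27 against 0 in both. The background share was not computed for untested genes, so no weight is placed on these.

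**Figure D4:**
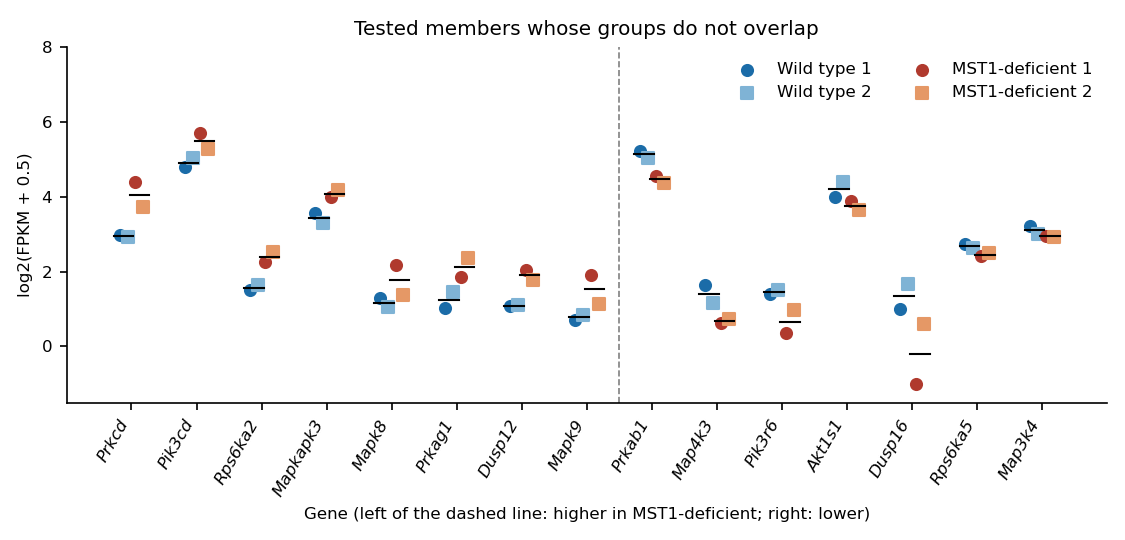
log2(FPKM + 0.5) (y axis) in each of the 4 libraries for the 15 tested members whose groups do not overlap (x axis); points are libraries and short lines are group means. The 8 genes left of the dashed line are higher in MST1-deficient libraries, led by Prkcd, and the 7 on the right are lower, led by Prkab1; none passed the adjusted p of 0.05.

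Single transcripts were tested in the same way, to ask whether a form differed even where the sum of its gene did not. Of 95 member transcripts, 51 were tested and 44 fell below the filter, and none was called by edgeR, DESeq2 or limma. Over all transcripts edgeR called 0 of 4661 (0%), with a lowest adjusted p of 0.0695, while DESeq2 called 100 and limma 6. At an unadjusted edgeR p under 0.05 there were 2 member transcripts (3.9%), against 5.26% of all. These were the only transcripts of Prkcd (edgeR unadjusted p = 0.0143, adjusted p = 0.534) and of Prkab1 (edgeR unadjusted p = 0.0483, adjusted p = 0.938).

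Listing in both libraries of 1 group and neither of the other was rare among member transcripts, as among all transcripts of annotated genes. The 14 member transcripts listed in only 1 library are not counted here. A 4022-base Prkcb transcript was listed in both wild-type and in neither MST1-deficient library, 1 of 95 against 1.89% of all transcripts of annotated genes. It had 2.72 and 1.27 estimated counts. In the opposite direction, a 3703-base transcript of Rps6ka5 was listed only in the MST1-deficient libraries, with 1.77 and 1.52 estimated counts, 1 of 95 against 2.23% of all. Each of these values is below 3 counts, which a library at 0 also allows, so that neither difference was detectable at this depth.

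The balance among the transcripts of 1 gene was tested with limma's diffSplice on log2(FPKM + 0.5). It called 17 of 909 genes (1.87%) with more than 1 tested transcript, and none of the 7 members among them. The lowest unadjusted p of a member was 0.19 (adjusted p = 0.731), for Map4k5. Its 2650-base form had estimated counts of 42.0 and 45.2 in the wild-type pools against 0 and 8.96 in the MST1-deficient pools. The 4540-base form had 65.3 and 7.99 against 102 and 0. Each MST1-deficient library thus listed a single form, and not the same one.

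Pik3cd had 3 forms of nearly equal length. The 4912-base form made up 62.5% and 97.9% of the gene's unannotated FPKM in the wild-type pools against 80.5% and 61.4% in the MST1-deficient pools. The 4885-base form made up 37.5% and 2.1% against 12.1% and 38.6%, and the 4882-base form was listed in MST1-deficient library 1 alone, at 7.4%. Shares varied as much within a group as between groups (diffSplice adjusted p = 0.906), while the sum over the forms was higher in both MST1-deficient libraries.

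For Rps6ka5 the 5491-base form held the largest share in every library, 58.6% and 73.2% in the wild-type pools against 82.0% and 72.0% in the MST1-deficient pools (diffSplice adjusted p = 0.982). The 6103-base form ranged from 1.2% to 41.4% between the wild-type libraries. Map4k2 had a 1394-base form at 38.6% and 0% against 67.5% and 26.4% (diffSplice adjusted p = 0.824). In Map4k4 the 5572-base form held 88.7% and 95.4% against 91.1% and 85.9% (diffSplice adjusted p = 0.925). The 14116-base form of Mapk8ip3, the longest transcript of any member, held 54.1% and 52.8% of that gene's FPKM in the wild-type pools against 54.0% and 39.1% in the MST1-deficient pools.

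**Figure D5:**
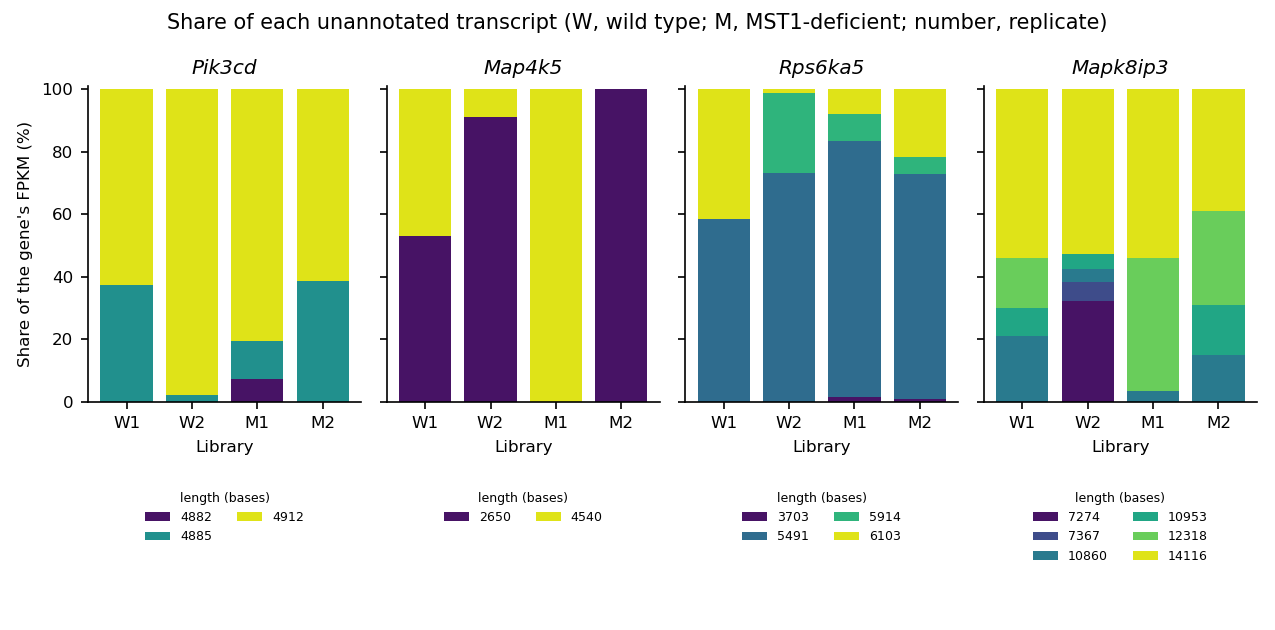
Share of each unannotated transcript in its gene's summed FPKM (y axis, percent) in the 4 libraries (x axis) for Pik3cd, Map4k5, Rps6ka5 and Mapk8ip3; colours are transcripts, named by length in bases. In Map4k5 the 2650-base form takes 53.0% and 91.0% in the wild-type pools against 0% and 100% in the MST1-deficient pools.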

How the data were processed

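RNA from 4 libraries, 2 wild type and 2 MST1-deficient, was compared. The authors deposited an expected count (estimated count, not normalised) and an FPKM value for each unannotated transcript, per the file headers. Per the submitters' processing notes, mm10 was the genome build; which aligner, assembler, estimator and annotation made the values is not given in the sources used here. Lists of whole unannotated genes were not used. A transcript missing from a library's list was set to 0. Library totals were implied by a regression of count over FPKM on transcript length.

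Gene numbers were matched to RefSeq GRCm38.p6 (5051 of 5059 matched, 8 did not), and lengths were compared with GENCODE M21. Members and lists were chosen with earlier results of these data known. Counts were summed by gene, rounded and tested with edgeR 4.0.16 (quasi-likelihood, TMM, 2-sided) under R 4.3.3, for features with FPKM of at least 1 in at least 2 libraries, at an adjusted p of 0.05. Standard errors were the absolute log2 fold change divided by the square root of F. Transcript balance used diffSplice of limma 3.58.1 on log2(FPKM + 0.5). DESeq2 1.42.0, limma, other scalings and filters, a replicate block and leaving out each library were alternatives. Reads carry no molecular identifiers, so limits cover counting error only.

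Genes were named with values by rule. Tested members without overlap between groups were named, up to 8 in each direction with the smallest p. So were the 8 most abundant members and the most abundant of each family. Transcripts listed in both libraries of 1 group and neither of the other were also named. The rule further took the 5 genes with the smallest p for transcript balance, and the relatives of MST1. MST1 was taken as the product of Stk4. Other members named to complete a family were chosen after their values were seen. The values of 1 member are not reported here.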

Additional observations from a re-analysis of the deposited data

How the results depend on the processing

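The count of members called stayed at 0 in every alternative run, for gene sums, single transcripts and transcript balance. The members' median log2 fold change was 0.17 with all libraries and lower, at 0.04 to 0.14, when each library was left out. With limma it was 0.07 on log2(FPKM + 0.5) and 0.04 on log2(FPKM + 1). The 15 members named from the comparison had been picked because their groups did not overlap. A kept direction was thus nearly fixed in advance, also in the ranges given above with each library left out. Of 164 alternative fits of these members, 162 kept their direction. The others were Map3k4 (-0.25 to 0.04 over the libraries left out) and Rps6ka5 (-0.42 to 0.00), which changed sign or reached 0 without MST1-deficient library 1. Their groups were apart in FPKM, while the fold changes came from counts scaled by TMM. With the implied library totals in place of TMM, the log2 fold change was -0.16 for Map3k4 and -0.27 for Rps6ka5, against -0.10 and -0.19 with TMM. Leaving out a library was not repeated with those totals, so the part of scale in the change of sign was not tested. Gene sums at an unadjusted p under 0.05 numbered 4 among members and 2 to 6 when a library was left out, 2 of them without either wild-type library; single transcripts numbered 2 and 0 to 5.

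Wild-type and MST1-deficient libraries share replicate numbers. Deviations from the group means of same-numbered libraries correlated with r = 0.075 over 3221 genes. With a single difference between libraries in each group, this value cannot show whether same-numbered libraries shared a sort or batch. With the replicate block 0 members were called and the members' median log2 fold change was 0.17. Over all genes, balance calls went from 17 to 0 with the block.

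Over all genes, edgeR sums called 0, DESeq2 46, limma 6 and a filter of values above 0 in all libraries 1. Transcripts gave 0, 100, 6 and 2. Balance gave 17, with 26 at a pseudocount of 0.1, 8 with no filter, 0 with values above 0 in all libraries, and 0 to 10 without a library (0 without either wild-type library, 6 and 10 without MST1-deficient libraries 1 and 2). Counts of a few estimated reads limit the 20 members below a mean FPKM of 1.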

Other observations

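Other genes of the same pathways were described from lists written for this work, with no list test. Of 48 MAP kinase pathway genes outside the member rule, 21 were listed and 9 tested, and edgeR called none (0 at an unadjusted p under 0.05; lowest adjusted p 0.941). Rasgrp2, an activator of RAP and RAS proteins, was at 93.2 and 80.9 FPKM in the wild-type pools against 107 and 124 in the MST1-deficient pools, without overlap. Mknk2, a kinase that ERK and p38 activate and that acts on the translation factor eIF4E, was at 85.2 and 91.8 against 81.4 and 72.0, lower in both MST1-deficient libraries. Both genes stood above every kinase signalling gene described in the report. The transcription factor Atf2, a JNK and p38 target, was at 9.49 and 7.6 against 9.09 and 4.86, and the ERK target Elk4 at 7.10 and 4.38 against 7.48 and 2.78; both overlapped.

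Of 36 PI3 kinase, AKT and mTOR genes outside the rule, 16 were listed and 10 tested, and edgeR called none. The AKT target Foxo3 was at 10.3 and 8.37 FPKM in the wild-type pools against 11.8 and 6.95 in the MST1-deficient pools, and the lipid phosphatase gene Inpp4a at 10.5 and 6.47 against 9.83 and 4.81. Gab1, a docking protein that brings PI3 kinase to receptors, was at 2.80 and 2.07 against 0.98 and 0.74, the only gene of the list with an unadjusted p under 0.05 (log2 fold change -1.45, SE 0.46, edgeR adjusted p = 0.78). The genes of mTOR, RPTOR, RICTOR, TSC1 and TSC2 were not listed. Of 20 Hippo genes, 6 were listed and 5 tested, and edgeR called none (0 at an unadjusted p under 0.05). Rassf2, which encodes a binding partner of MST kinases, was the most abundant, at 20.9 and 17.7 against 23.6 and 17.4, which overlap.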
